A study of Mus musculus with 6 samples.

Results

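Interferon-stimulated genes are the genes that cells switch on when an interferon binds its receptor. A set of 39 of them, a list of gene names whose rule uses no measured value but which was drawn up with earlier results of these data known, was followed in the liver RNA of 6 pregnant mice. The deposited table holds 56691 genes, of which 10866 had a mean FPKM (reads scaled by exonic length and library total) of at least 1 and were tested. Of the 39 interferon-stimulated genes, 34 were tested and 5 (Gbp2, Oas3, Rsad2, Cxcl10 and Ifi44) were below this level.

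From Day 0 until Day 17 of pregnancy all 6 dams received HFrD, in which fructose made up 70% and fat 10 kcal%, and their livers were taken for poly(A) RNA-seq. The 3 KPF dams were hChrebp-KO, that is, Chrebp flox/flox mice with Alb-Cre, and carry replicate numbers 1 to 3. The 3 WPF dams carry replicate numbers 2 to 4. Their labels say WT, whereas the study's methods describe Chrebp flox/flox mice without Cre, both on a C57BL/6J background. The age of the dams was not given in the sources used here. Since Alb drives Cre in hepatocytes, the other cells of the liver keep ChREBP, a transcription factor that fructose metabolites activate and that turns on glycolytic and lipogenic genes. The RNA came from whole liver, so that fewer cells of a type and less RNA per cell cannot be told apart in any value below.

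Type I interferons act through a receptor that activates a complex holding STAT2 and IRF9, which binds the interferon-stimulated response element (ISRE), while interferon gamma acts mainly through the GAS element. The products of these genes block viral entry, translation and genome copying, tag proteins with ISG15, sense viral RNA or dismantle the vacuoles of intracellular microbes. In the liver, hepatocytes, Kupffer cells (the resident macrophages) and endothelial cells all respond to interferon.

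The libraries held from 10694496 to 14496630 counted reads, with every KPF library smaller than every WPF library and WPF replicate 4 the largest. Mlxipl, the gene of ChREBP, was at 32.4, 126 and 153 normalized FPKM (FPKM with library sizes scaled by TMM) in KPF replicates 1, 2 and 3 and at 174, 228 and 159 in WPF replicates 2, 3 and 4, so that the groups did not overlap but KPF replicate 3 lay close to WPF replicate 4 (log2 fold change of KPF against WPF -0.84, SE, the standard error, 0.53, edgeR adjusted p = 0.584). The study's methods name exon 2 of Mlxipl as the region removed, whereas its reads were counted over 5538 exonic bases. The level of the whole gene thus does not measure the deletion itself. Fasn, the fatty acid synthase and a ChREBP target, went against 1 label. It stood at 13.4, 16.1 and 14.7 normalized FPKM in KPF, at 232 and 190 in WPF replicates 2 and 3 and at 22.0 in the library labelled WPF replicate 4. This library was below WPF replicates 2 and 3 at all 6 of the lipogenic and glycolytic ChREBP targets looked up for this purpose (Fasn, Acly, Acaca, Elovl6, Pklr and Thrsp, chosen after values were seen), by 2.71 to 22.0 times against the lower of them, and it lay at 0.518 to 1.43 times the highest KPF library. Txnip, looked up together with these targets, did not go with them. It was at 8.53 normalized FPKM in WPF replicate 4, above the 4.34 and 4.88 of WPF replicates 2 and 3. In KPF replicates 1, 2 and 3 Txnip was at 10.6, 7.48 and 4.18. The hepatocyte markers Alb, Ttr, Apoa1, Cps1, Serpina1a and Hnf4a were present in every library, with Alb between 27736 and 63488 normalized FPKM. Because the library labelled WPF replicate 4 stood apart, values without it are given beside the results, and why it stood apart was not tested.

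Promoters were read from RefSeq (GRCm38.p6, 250 bases before to 50 after each start site) to show what the genes have in common in sequence. An entry was found for 29 of the 39 genes. The ISRE core, written GAAANNGAAA and searched on both strands, was in 16 of these 29 (55.2%), against 1079 of 27025 genes in the whole promoter table (3.99%). The GAS element, written TTCNNNGAA and equal to its own reverse complement, was in 9 of 29 (31.0%), against 2582 genes (9.55%). Both were in 4 of 29 (13.8%), against 0.614% of all genes, and the matches may overlap each other. The genes were picked as interferon-stimulated, and a match of letters is not evidence of binding.

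The 250 bases before the start site are printed for 6 genes, all of which held the ISRE core there. Isg15, Ifit1, Ifit3 and Oas1a had large differences between libraries. Bst2 was the only gene whose groups did not overlap. Stat2 had the opposite order of groups and the highest level among the transcription factors. Oasl1 and Oasl2 (highest over lowest library 5.1 and 4.87), Irf7 (3.64) and Ifit2 (3.55) differed more than Ifit1 (3.04). These genes held no core in the same windows and are not printed, nor did the untested Ifi44 (4.24) hold one. Gbp3 (4.67) and the untested Oas3 (8.51) and Cxcl10 (4) also differed more than Ifit1. They held the core in such a window and are not printed either. Each printed sequence is given 5′ to 3′ along the gene, ending at the base before the start site. Capitals mark the ISRE core on either strand. The regions are chr4:156200819-156201068 (minus strand) for Isg15, chr19:34640639-34640888 (plus) for Ifit1, chr19:34583279-34583528 (plus) for Ifit3, chr5:120907526-120907775 (minus) for Oas1a, chr8:71537473-71537722 (minus) for Bst2 and chr10:128270248-128270497 (plus) for Stat2.
Isg15: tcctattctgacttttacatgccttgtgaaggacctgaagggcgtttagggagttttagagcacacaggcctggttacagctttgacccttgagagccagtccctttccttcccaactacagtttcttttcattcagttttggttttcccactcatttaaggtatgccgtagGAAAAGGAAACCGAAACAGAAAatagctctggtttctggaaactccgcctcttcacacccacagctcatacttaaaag
Ifit1: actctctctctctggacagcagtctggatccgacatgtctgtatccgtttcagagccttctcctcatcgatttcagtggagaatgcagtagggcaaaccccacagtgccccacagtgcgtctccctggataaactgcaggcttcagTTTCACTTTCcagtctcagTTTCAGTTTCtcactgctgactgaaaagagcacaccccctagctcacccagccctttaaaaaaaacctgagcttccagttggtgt
Ifit3: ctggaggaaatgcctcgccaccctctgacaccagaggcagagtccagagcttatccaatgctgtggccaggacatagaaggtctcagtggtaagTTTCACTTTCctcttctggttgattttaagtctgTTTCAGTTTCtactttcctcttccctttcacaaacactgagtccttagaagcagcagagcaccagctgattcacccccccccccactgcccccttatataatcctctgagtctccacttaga
Oas1a: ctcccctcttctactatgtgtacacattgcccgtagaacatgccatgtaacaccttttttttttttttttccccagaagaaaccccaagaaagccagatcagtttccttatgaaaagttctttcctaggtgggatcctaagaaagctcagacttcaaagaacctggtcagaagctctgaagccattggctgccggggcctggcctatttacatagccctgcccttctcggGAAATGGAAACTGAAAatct
Bst2: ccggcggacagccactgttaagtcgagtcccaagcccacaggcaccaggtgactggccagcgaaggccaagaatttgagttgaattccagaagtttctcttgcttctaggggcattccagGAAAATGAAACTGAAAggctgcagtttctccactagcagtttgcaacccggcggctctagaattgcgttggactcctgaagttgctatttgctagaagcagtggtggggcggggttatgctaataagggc
Stat2: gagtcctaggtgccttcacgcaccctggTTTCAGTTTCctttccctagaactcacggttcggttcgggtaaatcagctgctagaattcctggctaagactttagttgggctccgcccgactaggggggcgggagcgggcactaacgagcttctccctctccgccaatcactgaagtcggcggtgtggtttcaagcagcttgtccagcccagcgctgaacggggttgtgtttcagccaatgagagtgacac
In Isg15 the core occurred 3 times in overlapping copies, the first starting 78 bases before the start site. Bst2 and Oas1a each held 2 overlapping copies, starting at 130 and 20 bases before it. Ifit1 and Ifit3, neighbours on chromosome 19, each held 2 separate copies, the first of them at 104 and 156 bases. Stat2 held 1 copy, at 222 bases.

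The first question was whether the interferon-stimulated genes differ between KPF and WPF. None of the 34 tested genes was called higher and none lower, where a call needed an unadjusted p under 0.05 in edgeR's quasi-likelihood test and a change of at least 1.5-fold. Of all tested genes, 5.83% were called higher and 3.98% lower. No interferon-stimulated gene had an unadjusted p under 0.05, and their adjusted p values ran from 0.464 to 0.998. Over all tested genes edgeR gave none at an adjusted p under 0.05 (0% of 10866, the smallest being 0.397), although 1177 had an unadjusted p under 0.05. DESeq2 gave 156 of the 10866, of which 0 were interferon-stimulated genes. At so small a share of all tested genes, 0 among 34 is not a result about the set. The log2 fold change was below 0 in 27 of the 34 and above 0 in 7, with a median of -0.32 against 0.02 over all tested genes. Scaling by library totals in place of TMM moved the median over all tested genes to -0.12 and that of the set to -0.49, and turned 4 of the 7 values above 0 (Irf1, Oas2, Dhx58 and Ifi35) below it. It also changed the split of all calls from 634 higher and 433 lower to 371 higher and 729 lower.

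This lower median rested on 1 library. Without the library labelled WPF replicate 4 the median of the 34 genes was 0.12, against 0.03 over all tested genes, with 22 above 0 and 12 below. Zbp1 was then called higher and none was called lower, where 5.78% of all tested genes were called higher and 4.92% lower. Leaving out another library gave other calls, all at an adjusted p of at least 0.282 in edgeR. Irgm1, Oasl1, Oasl2 and Parp14 were called lower without WPF replicate 2, Bst2 without WPF replicate 3, Gbp3 without KPF replicate 2 and Irgm1 without KPF replicate 3, when Isg20 was also called higher. The shares of all tested genes called lower in these fits were, in this order of libraries, 2.63%, 2.26%, 4.48% and 6.52%, and 8.37% were called higher without KPF replicate 3. The standard errors in the fit of all 6 libraries ran from 0.22 to 0.76 on the log2 scale, with a median of 0.39 against 0.30 over all tested genes, and their median was 0.33 without that library, against 0.32. A change at the 1.5-fold limit, 0.585 on the log2 scale, was thus below 2 median standard errors of the set and could pass undetected with 3 dams in each group.

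**Figure D1:**
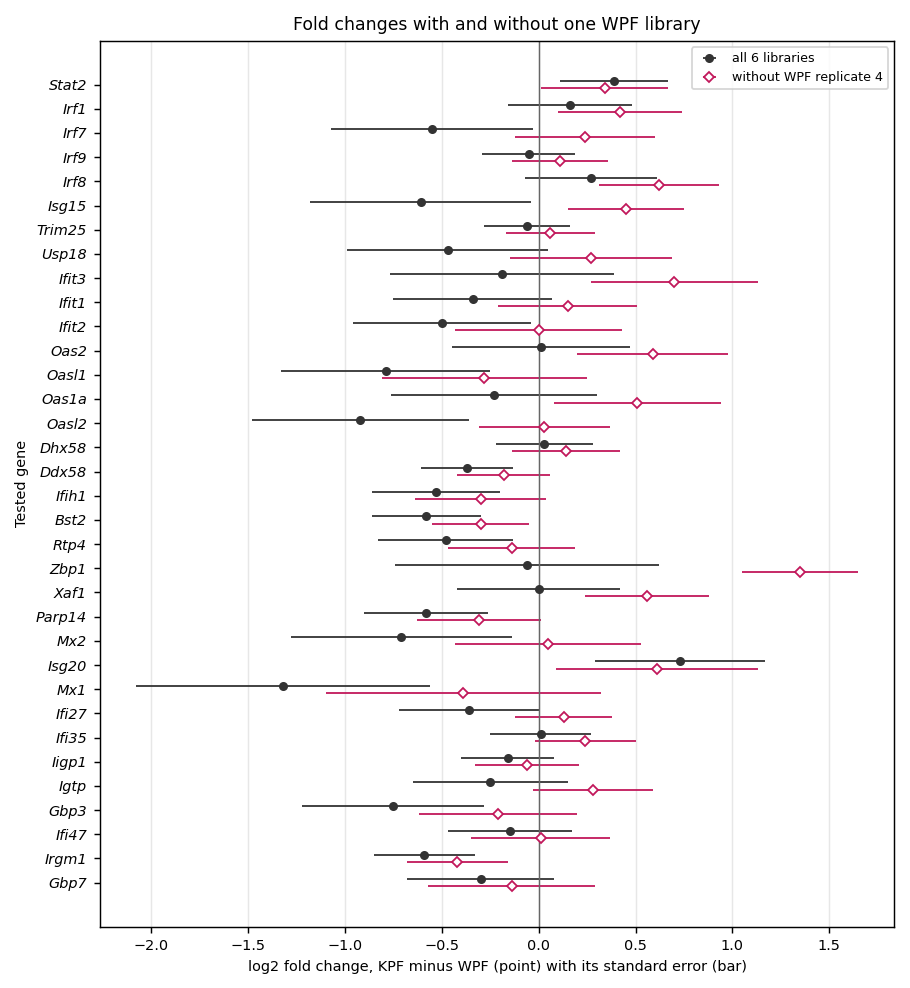
Log2 fold change of KPF against WPF (horizontal axis, bars are the standard error) for the 34 tested interferon-stimulated genes, with all 6 libraries (filled circles) and without WPF replicate 4 (open diamonds). The median moves from -0.32 to 0.12 when that library is left out, and Zbp1 moves from -0.06 to 1.35.

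WPF replicate 4 held the highest level of the 6 libraries at 30 of the 34 tested interferon-stimulated genes (88.2%), against 16.6% of all tested genes. With the 5 untested genes it was the highest at 33 of 39. It was at least 1.5 times every other library at 13 of the 34, against 1.96% of all tested genes, and its level was in the median 1.39 times that of the highest other library, against 0.727 times over all tested genes. The summed level of the 39 genes was 367, 418 and 368 normalized FPKM in KPF replicates 1, 2 and 3, 340 and 373 in WPF replicates 2 and 3 and 618 in WPF replicate 4. Without Stat2 and Iigp1, which make up much of these sums, they were 224, 314 and 255 in KPF, 237 and 261 in WPF replicates 2 and 3 and 503 in WPF replicate 4. In both sums WPF replicate 4 lay above the other 5 libraries, followed by KPF replicate 2. The 6 genes at which another library was the highest were Stat2, Isg20 and Rsad2 (KPF replicate 1), Dhx58 (KPF replicate 2), and Ifi47 and Gbp2 (KPF replicate 3).

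**Figure D2:**
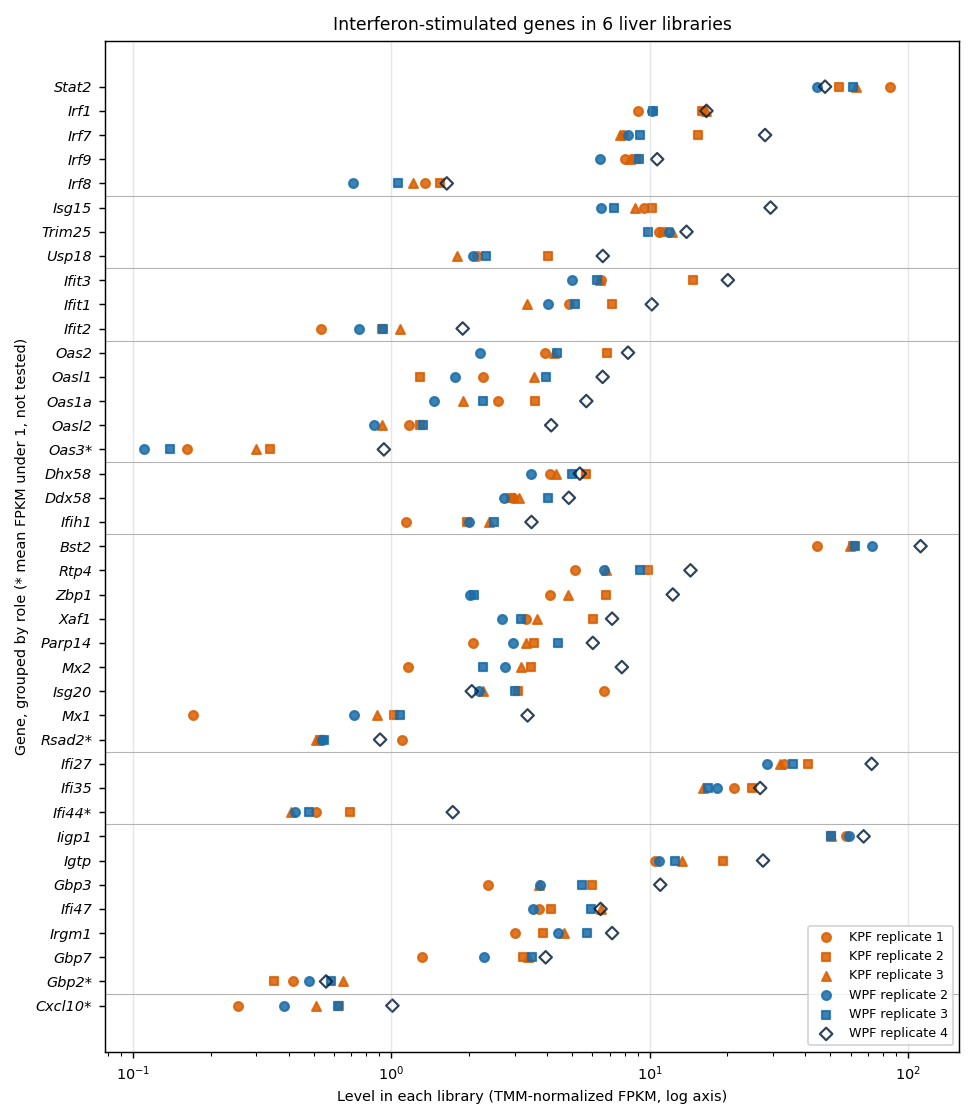
Normalized FPKM (horizontal log axis) of each of the 39 interferon-stimulated genes in each of the 6 libraries, with 1 point a library and genes grouped by role; an asterisk marks the 5 genes that were not tested. The open diamonds of WPF replicate 4 lie furthest to the right for 33 of the 39 genes.

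**Figure D3:**
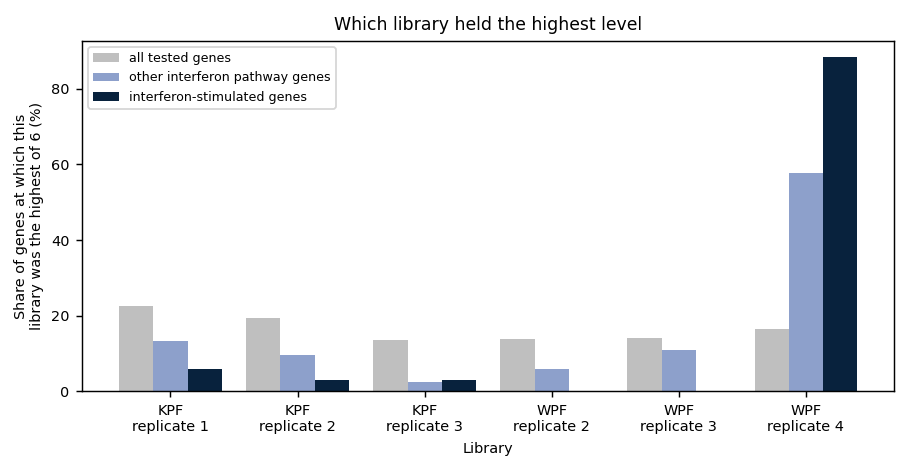
Share of tested genes (%) at which each library held the highest of the 6 levels, for all 10866 tested genes, for 83 other tested genes of the interferon pathway and for the 34 tested interferon-stimulated genes. The bars of WPF replicate 4 stand at 16.6%, 57.8% and 88.2%.

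The other 5 libraries were also ordered. KPF replicate 2 was the highest KPF library at 22 of the 34 genes, against 33% of all tested genes. WPF replicate 3 was above WPF replicate 2 at 29 of the 34, against 48.8% of all tested genes. WPF replicate 2 was the lowest of the 6 libraries at 14 of the 34, against 13.5% of all tested genes. KPF replicate 1 was the lowest at 12 of the 34, against 23.3%. For the median interferon-stimulated gene the highest library stood at 2.95 times the lowest, against 2.03 times over all tested genes.

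The transcription factors of the set carry the signal to the other genes. Stat2 (ENSMUSG00000040033, chromosome 10, 128106428 to 128128718 on GRCm39, plus strand), the signal carrier of type I interferon, was at 85, 53.9 and 63.1 normalized FPKM in KPF replicates 1, 2 and 3 and at 44.4, 61.5 and 47.8 in WPF replicates 2, 3 and 4. KPF replicate 1 was the highest library, WPF replicate 3 lay within the KPF range, and the difference was within the spread between dams (log2 fold change 0.39, and 0.34 without WPF replicate 4, SE 0.28 and 0.33, edgeR adjusted p = 0.627; exact two-sided permutation p = 0.2, where 3 against 3 cannot go below 0.1). Stat2 did not have its highest level in WPF replicate 4, unlike most genes of the set. Its neighbour Apof, an apolipoprotein gene on the same strand that ends 405 bases before Stat2 begins, was at 171, 207 and 358 normalized FPKM in KPF and 311, 260 and 304 in WPF, and whether reads of 1 gene were counted on the other was not tested.

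Irf7, the factor that amplifies interferon production, was at 7.92, 15.4 and 7.68 normalized FPKM in KPF and at 8.26, 9.19 and 28.0 in WPF. WPF replicate 4 was 1.81 times the next library, KPF replicate 2, and the other 4 libraries lay between 7.68 and 9.19 (log2 fold change -0.55, and 0.24 without WPF replicate 4). Irf9, the DNA-binding partner of STAT2, varied less, with 8.06, 8.87 and 8.38 in KPF and 6.40, 9.10 and 10.7 in WPF (log2 fold change -0.05, and 0.11 without WPF replicate 4). The 3 KPF values of Irf9 lay inside the WPF range. Irf9 overlaps Rnf31 on the same strand over 123 bases, and how shared reads were counted was not given in the sources used here.

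Irf1, a factor that interferon gamma induces strongly, was at 9.06, 16.0 and 16.5 normalized FPKM in KPF and at 10.2, 10.3 and 16.6 in WPF. Both groups thus held libraries near 10 and near 16, and the log2 fold change was 0.16 (SE 0.32, and 0.42 without WPF replicate 4). Irf8, a factor of macrophages and dendritic cells, was low, at 1.35, 1.55 and 1.21 in KPF and at 0.710, 1.06 and 1.64 in WPF (log2 fold change 0.27, and 0.62 without WPF replicate 4). None of the 5 transcription factors was called with all libraries or without WPF replicate 4.

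Isg15 (ENSMUSG00000035692, chromosome 4, 156283912 to 156285253 on GRCm39, minus strand), the ubiquitin-like protein whose promoter is printed above, was at 9.49, 10.2 and 8.75 normalized FPKM in KPF and at 6.51, 7.30 and 29.4 in WPF. WPF replicate 4 held 353 reads, and the other libraries held from 53 to 81. Its level was 2.89 times that of the highest other library. Both remaining WPF libraries were below every KPF library, and the log2 fold change went from -0.61 (SE 0.57) to 0.45 (SE 0.30, edgeR adjusted p = 0.603) when WPF replicate 4 was left out. Usp18, which removes ISG15 from proteins and restrains the type I receptor, showed the same library on top, with a log2 fold change of -0.47 and 0.27 without it. Trim25, a ubiquitin ligase that acts on RIG-I, was nearly level, between 9.89 and 13.9 normalized FPKM in the 6 libraries (log2 fold change -0.06, and 0.06 without WPF replicate 4).

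The IFIT proteins bind viral RNA and block its translation. Ifit3 (chromosome 19, 34560931 to 34566131 on GRCm39, plus strand), the highest of them, was at 6.50, 14.7 and 6.44 normalized FPKM in KPF and at 5, 6.28 and 20.1 in WPF. A KPF library (replicate 2) and a WPF library (replicate 4) stood above the other 4, which lay between 5 and 6.50. The log2 fold change was -0.19 (SE 0.58) and 0.70 (SE 0.43, edgeR adjusted p = 0.572) without WPF replicate 4. Ifit1 and Ifit2 had log2 fold changes of -0.34 and -0.50 (0.15 and -0.00 without it), and WPF replicate 4 was the highest library at all 3. Reads of Ifit3 may be shared with the near-identical Ifit3b, and how they were counted was not given in the sources used here.

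The OAS enzymes make the short oligoadenylates that activate RNase L. Oas2, the highest of them, was at 3.92, 6.84 and 4.27 normalized FPKM in KPF and at 2.21, 4.40 and 8.25 in WPF. Here too KPF replicate 2 and WPF replicate 4 led their groups, and the log2 fold change was 0.01 (0.59 without WPF replicate 4). Oasl2, named after its values were seen because its WPF replicate 4 stood out most, was at 1.17, 1.29 and 0.919 in KPF and at 0.854, 1.33 and 4.16 in WPF. That library was 3.12 times the next one, and the log2 fold change of Oasl2 went from -0.92 to 0.03 without it. Oas1a and Oasl1 had log2 fold changes of -0.23 and -0.79 (0.51 and -0.28 without it). Oas3, not tested, held 9 to 113 reads and was at 0.936 normalized FPKM in WPF replicate 4, against 0.110 to 0.338 in the other libraries. Oas1a has near-identical copies in the same cluster, which makes its reads uncertain.

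The RNA helicases sense viral RNA in the cytoplasm. Dhx58, which encodes LGP2, was at 4.13, 5.68 and 4.35 normalized FPKM in KPF and at 3.49, 5.02 and 5.37 in WPF. The groups overlapped over most of their range (log2 fold change 0.03, SE 0.25, and 0.14 without WPF replicate 4). Ifih1, which encodes MDA5, had a log2 fold change of -0.53 (-0.30 without it), and Ddx58, which encodes RIG-I, of -0.37 (-0.18 without it). WPF replicate 4 was at most 1.40 times the next library in this group.

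Among the antiviral effectors, Bst2 (ENSMUSG00000046718, chromosome 8, 71986899 to 71990100 on GRCm39, minus strand), the tetherin that holds budding virus at the cell surface, was the only interferon-stimulated gene whose groups did not overlap. It was at 44.6, 61.2 and 59.8 normalized FPKM in KPF and at 72.8, 62.6 and 112 in WPF. KPF replicate 2 and WPF replicate 3 lay next to each other, and WPF replicate 4 was 1.53 times the next library. The log2 fold change was -0.58 (SE 0.28, edgeR adjusted p = 0.499; exact two-sided permutation p = 0.1, the smallest possible) and -0.30 (SE 0.25) without WPF replicate 4. Over all tested genes, 8.15% did not overlap with KPF lower and 7.55% with KPF higher, so that 1 lower and 0 higher among 34 was no larger a share than the background.

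Mx1 and Mx2, genes of the dynamin-like GTPase family, ranged widely. Mx1, which had the lowest log2 fold change (-1.32, SE 0.76), was at 0.170, 1.02 and 0.883 normalized FPKM in KPF and at 0.718, 1.08 and 3.37 in WPF, on 6 to 194 reads. KPF replicate 1 and WPF replicate 4 lay at the ends, and the other 4 libraries lay between 0.718 and 1.08. Without WPF replicate 4 the log2 fold change of Mx1 was -0.39 and that of Mx2 went from -0.71 to 0.05. Both Mx genes were picked out after their values were seen.

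Zbp1, the sensor of Z-form nucleic acid that can start necroptosis, was at 4.13, 6.79 and 4.82 normalized FPKM in KPF and at 2.01, 2.09 and 12.3 in WPF. WPF replicates 2 and 3 lay at about the same level, below every KPF library, and WPF replicate 4 lay above every KPF library. The log2 fold change was -0.06 (SE 0.68) with all libraries. Without WPF replicate 4 it was 1.35 (SE 0.30, unadjusted p = 0.00285 in edgeR's model, adjusted p = 0.222), the only call of the set in that fit.

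Isg20, an RNA exonuclease, ran the other way. It was at 6.66, 3.09 and 2.27 normalized FPKM in KPF and at 2.18, 3.02 and 2.05 in WPF, and its log2 fold change of 0.73 (SE 0.44) was the highest of the set. KPF replicate 1 stood apart from the other 5 libraries, and WPF replicate 4 was the lowest, at 0.307 times KPF replicate 1. Rtp4, Xaf1 and Parp14 had log2 fold changes of -0.48, -0.00 and -0.58, and of -0.14, 0.56 and -0.31 without WPF replicate 4. That of Isg20 was then 0.61. Rtp4 overlaps Gm45338 on the same strand over 39791 bases and Masp1 on the other strand over 525, so that its reads may be split in an uncertain way. The untested Rsad2, which encodes viperin, lay between 0.510 and 1.10 normalized FPKM. Zbp1 and Isg20 were described in full because of their values.

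The interferon-inducible proteins gave a similar picture. Ifi27, a mitochondrial protein, was at 33.2, 41.2 and 31.9 normalized FPKM in KPF and at 28.6, 35.8 and 72.4 in WPF. The library labelled WPF replicate 4 was 1.75 times the next, and the log2 fold change moved from -0.36 to 0.13 without it. Ifi35 was nearly level between the groups, with a log2 fold change of 0.01 (0.24 without it). The untested Ifi44 was at 1.73 in WPF replicate 4 and between 0.408 and 0.693 elsewhere.

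The GTPases of the IRG and GBP families attack the vacuoles of intracellular microbes and are classical targets of interferon gamma. Iigp1, the highest of them, was at 57.6, 50.3 and 50.6 normalized FPKM in KPF and at 59.1, 50.2 and 67.4 in WPF. Its 6 libraries lay closer together than those of most of the set, and the groups overlapped (log2 fold change -0.16, SE 0.24, and -0.06 without WPF replicate 4). Irgm1, which controls the other IRG proteins, had the smallest p of the set, with a log2 fold change of -0.59 (SE 0.26, edgeR adjusted p = 0.464) and -0.42 without WPF replicate 4. Gbp3, Igtp, Gbp7 and Ifi47 had log2 fold changes of -0.75, -0.25, -0.30 and -0.15, and of -0.21, 0.28, -0.14 and 0.01 without that library. Igtp overlaps Irgm2 on the same strand over 7974 bases, so that their reads may be split in an uncertain way, and the GBP genes have close paralogs. Gbp2 was not tested, at 0.352 to 0.649 normalized FPKM.

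Cxcl10, the chemokine that draws T cells, was too low to test. It was at 0.254, 0.628 and 0.512 normalized FPKM in KPF and at 0.384, 0.624 and 1.01 in WPF, on 6 to 39 reads. The groups overlapped, and the gene overlaps Art3 on the other strand.

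Levels per exonic length were spread over a wide range. The mean over the 6 libraries was highest for Bst2 (68.8 normalized FPKM), followed by Stat2 (59.3), Iigp1 (55.9) and Ifi27 (40.5). The library ranges of each of these genes overlapped that of the next, so that the order of neighbours was within the spread. In all, 10 genes had a mean of at least 10 normalized FPKM, 24 lay from 1 to 10 and 5 were below 1. Most of the set was therefore expressed at a low level in these livers.

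The presence of the ISRE core did not divide the set sharply. Of the 12 tested genes whose promoter held it, WPF replicate 4 was the highest at 11, and its level was in the median 1.41 times that of the highest other library. Of the 12 tested genes with a promoter but no core, it was the highest at 10, with a median of 1.15 times. At least 1.5 times every other library was reached by 4 genes in each. This is a description without a test, and an element outside these windows was not looked for.

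The genes upstream and downstream of the set were read from 6 lists with 116 genes, of which 83 were tested. None was called higher and 6 were called lower, where 5.83% of all tested genes were called higher and 3.98% lower. Without WPF replicate 4, 2 were called higher (Gbp11 and Apol9a, named for these values) and 5 lower. The groups did not overlap at 10 of the 83, all lower in KPF, against 8.15% of all tested genes for lower and 7.55% for higher. The interferon genes themselves were at or near 0 reads. Of 13 type I, II and III interferon genes, 11 had no read in any library, Ifng had 0, 0 and 1 reads in KPF and 2 in each WPF library, and Ifnk had 2 reads in KPF replicate 3 alone. These counts were too low to compare, and no fold change was formed.

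Among the receptors and kinases, 1 of 10 tested genes was called. Ifngr1, the ligand-binding chain of the interferon gamma receptor, was at 2.91, 2.92 and 3.81 normalized FPKM in KPF and at 5.34, 5.43 and 6.71 in WPF. The groups did not overlap, with KPF lower, and the log2 fold change of -0.86 (SE 0.22, unadjusted p = 0.00526 in edgeR's model, adjusted p = 0.430) was -0.75 without WPF replicate 4.

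In the list of nucleic acid sensors, 1 of 10 was called. Mavs, the mitochondrial adaptor of RIG-I and MDA5, was at 2.48, 6.45 and 5.05 normalized FPKM in KPF and at 7.03, 7.29 and 10.7 in WPF. The groups did not overlap (log2 fold change -0.84, SE 0.36, edgeR adjusted p = 0.461), but without WPF replicate 4 Mavs was no longer called (log2 fold change -0.63, unadjusted p = 0.151 in edgeR's model). Of the 9 tested brakes of the pathway none was called. Those with the highest levels were Irf2bp2, a corepressor partner of IRF2, with a log2 fold change of -0.62, and Nlrc5, with 0.20. Without WPF replicate 4, Irf2bp2 was called lower (-0.78, unadjusted p = 0.0313 in edgeR's model, adjusted p = 0.410) and Nlrc5 stood at 0.56.

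Of 45 other tested type I targets, 3 were called lower. Ifitm3, which blocks viral fusion, was at 142, 235 and 250 normalized FPKM in KPF and at 440, 356 and 444 in WPF (log2 fold change -0.98, SE 0.29, edgeR adjusted p = 0.430). Here all 3 WPF libraries were high, and the value was -0.94 without WPF replicate 4. Adar, the RNA-editing enzyme, was at 1.27, 1.72 and 1.96 normalized FPKM in KPF and at 2.19, 2.68 and 3.59 in WPF. It had a log2 fold change of -0.77 and was no longer called without that library (-0.57, unadjusted p = 0.0698 in edgeR's model). Cmpk2, a mitochondrial nucleotide kinase next to Rsad2, was at 0.847, 1.15 and 1.5 in KPF and at 1.70, 2.65 and 1.69 in WPF. Its log2 fold change was -0.79, and -0.91 without it.

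Of 9 other tested interferon gamma targets, 1 was called lower. Cxcl9, a T cell chemokine like Cxcl10, was at 0.537, 1.70 and 1.43 normalized FPKM in KPF and at 3.29, 5.64 and 1.81 in WPF. Its highest library was WPF replicate 3, and WPF replicate 4 lay nearest to KPF (log2 fold change -1.54, and -1.87 without it, SE 0.54 and 0.51, edgeR adjusted p = 0.430 and 0.288). WPF replicate 4 was the highest library at 48 of the 83 tested genes of the 6 lists (57.8%).

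Markers of other liver cells were read in the same way. For Kupffer cells and macrophages, 0 of 11 markers were called (C1qb was called higher without WPF replicate 4), WPF replicate 4 was the highest library at 9 of them, and their summed level was 118 to 151 normalized FPKM in KPF, 111 and 145 in WPF replicates 2 and 3 and 224 in WPF replicate 4. The same library was thus on top for the macrophage markers and for the interferon-stimulated genes, and the part of the first in the second was not tested. C1qc, a complement gene of macrophages, was at 12.6 in WPF replicate 4 against 3.22 to 5.91 elsewhere, whereas Clec4f, which marks Kupffer cells, was at 55.0 there and at 50.8 in KPF replicate 2.

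The plasmacytoid dendritic cell list (0 of 4 tested) summed to 1.46 to 1.86 normalized FPKM in KPF and 0.781 to 1.22 in WPF, with WPF replicate 4 the lowest. The T and NK cell list (0 of 10 tested) summed to 3.44 to 4.82 in KPF and 1.86 to 2.91 in WPF. The 3 tested B cell markers and the 3 tested neutrophil markers gave 0 calls. The sums over all 4 B cell markers were 4.02 to 8.78 in KPF and 3.52 to 3.86 in WPF, so that the groups did not overlap. The sums over all 5 neutrophil markers were 6.77 to 12.2 in KPF and 5.21 to 9.15 in WPF. In WPF replicate 4 these sums were 3.52 and 9.15. Of the stellate cell and fibroblast markers 3 of 6 were called higher in KPF (Col1a1, Col3a1 and Reln, the last not without WPF replicate 4), with sums of 18.2 to 36.4 in KPF and 10.6 to 14.0 in WPF, and of the sinusoidal endothelial markers 1 of 6 (Pecam1), where 5.83% of all tested genes were called higher. WPF replicate 4 was not the highest library in any of these sums.

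**Figure D4:**
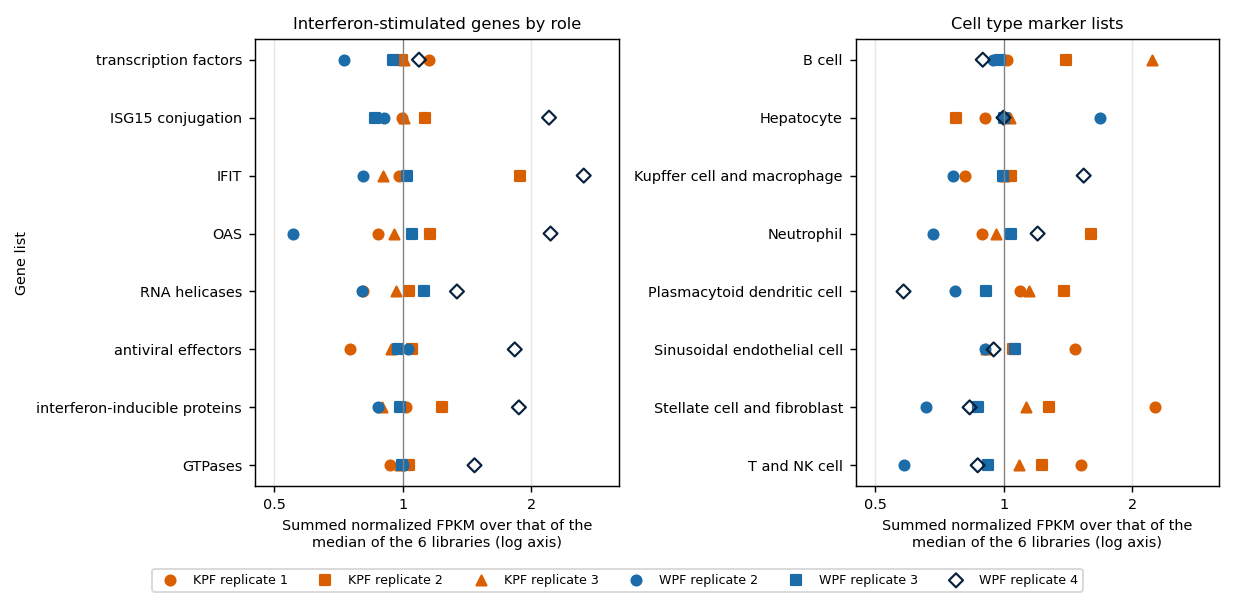
Summed normalized FPKM of each gene list in each library, divided by the median of the 6 libraries (horizontal log axis), for the interferon-stimulated genes by role (left) and for cell type markers (right). WPF replicate 4 leads 7 of the 8 role groups shown and, among the marker lists, that of Kupffer cells and macrophages.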

How the data were processed

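Liver RNA-seq libraries of 3 KPF and 3 WPF dams were compared. The table deposited by the authors gives unnormalized counts, FPKM values and exonic lengths for each gene. Per the labels the reads were trimmed with cutadapt 1.9.1, aligned with HISAT2 2.2.1 to GRCm39 and counted with HTSeq 0.6.1. The strand setting was not given in the sources used here, so reads of overlapping antisense genes cannot be told apart. The deposited FPKM values equal count over exonic length and library total within 0.005. Symbols matched 52073 of 56691 gene IDs and 4618 had none.

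Counts were compared with edgeR 4.0.16 (R 4.3.3, TMM, quasi-likelihood test, Benjamini-Hochberg over 10866 tested genes, those whose FPKM averaged 1 or more). A call needed an unadjusted p under 0.05 and at least 1.5-fold. The levels printed are FPKM recomputed with TMM-scaled library sizes (factors 0.891 to 1.178). The script was tested on simulated data. Libraries held 10694496 to 14496630 counted reads. Chi-square per gene between libraries of a group was 24.9 or more, so none duplicated another library of its own group. Pairs across the groups were not compared in this way. Nothing in the labels says how many dams share a litter or batch.

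The 39 genes and the pathway and marker lists were chosen with earlier results of these data known, so no list was tested. Among the 39 genes, levels per library are given for those that were called or whose groups did not overlap, for the transcription factors and for the highest gene of each role group. From each pathway list up to 5 called genes by p, or otherwise the 2 highest, are named, and marker lists are given by counts and sums. Other genes were named after their values were seen, as stated beside them. DESeq2 1.42.0, limma 3.58.1 on log2(FPKM + 1) and log2(FPKM + 0.1), other filters and scalings, each library left out and a replicate block were alternatives. A further item is not reported here.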

Additional observations from a re-analysis of the deposited data

How the results depend on the processing

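With all 6 libraries, 0 interferon-stimulated genes were called in either direction, and 634 of all tested genes were called higher, 433 lower and 0 at an adjusted p under 0.05. DESeq2 gave 156 genes at an adjusted p under 0.05 and 1 marker called lower, and DESeq2 size factors changed the sign or call of none of the 34 tested genes. Library totals gave 371 genes higher (3.41%) and 729 lower (6.71%), 1 interferon-stimulated gene lower (Irgm1), 2 markers higher and 3 lower. Log2 fold changes were then -0.01 for Irf1, -0.19 for Oas2, -0.13 for Dhx58 and -0.13 for Ifi35. Without the expression filter 26984 genes were tested, and 286 had an adjusted p under 0.05. Calls were 1576 genes higher (5.84%) and 910 lower (3.37%), with 6 of the 39 interferon-stimulated genes lower. Pathway lists then had 1 higher and 12 lower, and markers 7 higher and 2 lower. Log2 fold changes were -0.05 for Oas2, -0.04 for Dhx58 and -0.05 for Ifi35. A mean FPKM of at least 5 left 255 genes higher, 205 lower, 0 markers higher and 1 pathway gene lower, as fewer genes were tested. The filter of edgeR gave 1 interferon-stimulated gene lower, 2 markers lower, and -0.01 for Oas2 and Ifi35. Of all genes that it kept, 4.05% were called lower. On log2(FPKM + 1), limma gave 237 genes higher, 2 markers higher and 2 lower, -0.00 for Oas2, -0.08 for Dhx58, -0.10 for Ifi35 and 0.19 for Zbp1. On log2(FPKM + 0.1) it gave 288 genes higher, 700 lower, 2 markers higher and 3 lower, -0.08 for Dhx58, -0.10 for Ifi35 and 0.32 for Zbp1. Unless a setting shows it by its construction, the cause was not tested.

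Leaving out 1 library at a time, the median of the set ran from -0.57 (without WPF replicate 2) to 0.12 (without WPF replicate 4), its calls from 0 to 1 higher and from 0 to 4 lower, all genes from 324 to 910 higher and from 246 to 709 lower (the lowest without WPF replicate 3, the highest without KPF replicate 3), genes at an adjusted p under 0.05 from 0 to 5, pathway calls from 0 to 2 higher and from 3 to 12 lower, and marker calls from 3 to 6 higher and from 0 to 1 lower. Genes whose sign turned ran from -0.14 to 0.14 (Dhx58), -0.52 to 0.02 (Gbp7), -0.61 to 0.13 (Ifi27), -0.15 to 0.24 (Ifi35), -0.43 to 0.01 (Ifi47), -0.66 to 0.15 (Ifit1), -0.70 to 0.70 (Ifit3), -0.53 to 0.28 (Igtp), -0.96 to 0.24 (Irf7), -0.23 to 0.11 (Irf9), -0.95 to 0.45 (Isg15), -1.02 to 0.05 (Mx2), -0.56 to 0.51 (Oas1a), -0.34 to 0.59 (Oas2), -1.29 to 0.03 (Oasl2), -0.17 to 0.06 (Trim25), -0.90 to 0.27 (Usp18), -0.32 to 0.56 (Xaf1) and -0.45 to 1.35 (Zbp1).

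Only numbers 2 and 3 occur in both groups. Deviations of same-numbered libraries from their group means had correlations of 0.0658 and -0.0448, inside the -0.19 to 0.166 of the other pairs. With only 2 such matches, this cannot decide whether the numbers pair the dams. A fit with the replicate number as a block takes its contrast from the 4 libraries numbered 2 and 3 by construction, without KPF replicate 1 and WPF replicate 4. It gave a median of 0.18 for the set, 2 of its genes higher (Irf1 and Zbp1), 6 pathway genes higher and 1 lower and 1 marker lower. Of all tested genes, 6.26% were called higher and 5.07% lower in that fit. The signs that turned with the block were Irf7 0.32, Irf9 0.17, Ifit1 0.11, Ifit2 0.26, Ifit3 0.80, Isg15 0.45, Usp18 0.30, Oas1a 0.51, Oasl2 0.03, Mx1 0.10, Mx2 0.42, Xaf1 0.68, Ifi27 0.18, Ifi47 0.18, Igtp 0.45, Gbp3 0.05, Gbp7 0.22, Trim25 0.11, Rtp4 0.07 and Zbp1 1.48. No interferon-stimulated gene reached an adjusted p under 0.05 in any fit (smallest 0.164, with the block). Cxcl10, Gbp2, Oas3, Rsad2 and Ifi44, with 6 to 181 reads in a library, fell under the FPKM minimum and were tested only without it or with the filter of edgeR. The interferon genes held at most 2 reads in a library, and whether depth or absence of the transcripts accounts for this was not tested.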

Other observations

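Among genes with a mean of at least 5 normalized FPKM, Isg15 was the third by the ratio of WPF replicate 4 to the highest other library (2.89 times). The genes before it were Mt2, a metallothionein, and Snai3, a zinc finger repressor. Mt2 stood at 1062 normalized FPKM in WPF replicate 4 and at 90.8 to 324 in the other libraries. Snai3 stood at 31.8 there and at 6.10 to 10.6 in the others. Over all tested genes, 213 were at least 1.5 times every other library in WPF replicate 4, and 13 of these (6.1%) belonged to the set of interferon-stimulated genes.

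A few interferon targets had their highest level in KPF replicate 2 instead. Gbp11, a guanylate-binding protein, was at 6.23, 102 and 16.2 normalized FPKM in KPF replicates 1, 2 and 3 and at 3.40, 6.58 and 17.2 in WPF replicates 2, 3 and 4 (log2 fold change 2.19, standard error 1.03, adjusted p = 0.487 from edgeR). Apol9b, an apolipoprotein L gene, was at 43.5, 190 and 58.0 in KPF and at 28.1, 36.3 and 124 in WPF, so that KPF replicate 2 and WPF replicate 4 led. Both have near-identical relatives, and both were picked after their values were seen.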
